A study of Mus musculus with 6 samples.

Results

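The immediate early AP-1 and EGR genes examined here are Fos, Fosb, Fosl1, Fosl2, Jun, Junb, Jund, Egr1, Ier2 and Ier3. They were found by gene symbol in a table of 27179 genes from mouse melanoma cells, and all 10 were present. The cells were B16F10, an established melanoma line whose genotype the labels give as WT, grown in DMEM with fetal bovine serum. One group of 3 libraries came from cells treated for 6 h with 0.01% OZO, olive oil exposed to ozone, and the other group of 3 libraries from cells treated for 6 h with 0.01% OLO, the olive oil from which OZO is made. The values analysed here are the authors' averages over all 6 libraries, so OZO and OLO cells are not told apart in any level below. A difference between OZO and OLO is not given, because the table states it only as the authors' own comparison, which was not used here. Each average is a log2 CPM, the log2 of a gene's reads per 1000000 reads of its library, and no SD can be attached to it. The 6025 genes without reads share 1 value, from which a depth of 19641945 reads per library follows (a geometric mean, after the scaling of library sizes), and 1 CPM equals 19.6 reads at that depth.

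As a class, immediate early genes are transcribed within minutes of a growth factor or a stress, without new protein synthesis, and their mRNAs are typically short-lived. Members of the AP-1 families differ in this, and neither induction nor mRNA decay was measured here for any gene. JUN and FOS proteins join through leucine zippers into the AP-1 transcription factor, JUN proteins also pair with each other, and FOS proteins need a partner to bind DNA. EGR1 is a zinc finger transcription factor induced through ERK and the serum response factor SRF. IER2 is a small nuclear protein, and IER3 is a small protein linked to survival and to control of ERK signalling. In melanoma cells the MAP kinase pathway, which feeds into many of these genes, is commonly active.

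Promoter sequences from RefSeq on GRCm38.p6 were found for 7 of the 10 genes, namely Fos, Fosb, Fosl2, Jun, Junb, Jund and Ier3. The 4 promoters shown hold letters like the cAMP response element (CRE) or the AP-1 site, which CREB, ATF and AP-1 proteins bind. Each line gives the 150 bases before the start of the gene, 5′ to 3′ on the strand of the gene. Capitals mark TGACG, the core of a CRE, on either strand, TGACATCA, a CRE-like variant, and TATAAA, the TATA box. The Fos sequence lies at chr12:85473740-85473889 (plus strand), Fosb at chr7:19310046-19310195 (minus strand), Jun at chr4:95052223-95052372 (minus strand) and Junb at chr8:84978749-84978898 (minus strand).
Fos: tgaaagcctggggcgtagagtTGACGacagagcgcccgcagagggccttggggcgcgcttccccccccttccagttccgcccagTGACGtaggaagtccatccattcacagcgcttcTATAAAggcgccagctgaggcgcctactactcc
Fosb: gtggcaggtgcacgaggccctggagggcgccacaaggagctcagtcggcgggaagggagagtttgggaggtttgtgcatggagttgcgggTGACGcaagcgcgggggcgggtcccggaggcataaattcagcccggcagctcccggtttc
Jun: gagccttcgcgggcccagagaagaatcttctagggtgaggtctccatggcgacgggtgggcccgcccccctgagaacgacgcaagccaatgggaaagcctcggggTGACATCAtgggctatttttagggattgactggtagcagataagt
Junb: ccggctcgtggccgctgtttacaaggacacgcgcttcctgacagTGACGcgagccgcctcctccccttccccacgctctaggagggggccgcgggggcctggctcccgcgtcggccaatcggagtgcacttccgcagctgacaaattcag

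In the 250 bases before the start, TGACG was found in Fos, Fosb and Junb, which is 3 of 7 genes, and 17.8% of the 32851 RefSeq promoters also hold it. Among the 12021 promoters of genes averaging at least 1 CPM in these cells, the share was 27.0%. Fos held it 2 times, at positions -129 to -125 and -66 to -62 before the start, and a TATA box at -33 to -28, which 12.4% of all promoters and 6.27% of those of genes at 1 CPM or more also hold. Fosb held it at -60 to -56 and Junb at -106 to -102. The TGACATCA of Jun lay at -45 to -38, and 2.93% of all promoters and 1.59% of those of genes at 1 CPM or more hold these letters. With TGACG, TGACATCA, the full CRE TGACGTCA and the AP-1 site TGACTCA counted together on both strands, 4 of 7 promoters held at least 1 of the 4 motifs, against 24.1% of all promoters and 30.5% of those of genes at 1 CPM or more. TGACG is contained in TGACGTCA, so these motifs overlap. The full CRE and TGACTCA were in 0 of the 7 windows, in 1.55% and 4.46% of all promoters, and in 2.70% and 2.99% of those of genes at 1 CPM or more. The CArG box, to which SRF binds, was also in 0 of the 7 windows and in 1.47% of all promoters and 1.07% of those of genes at 1 CPM or more. An absent match says only that these letters are not in these 250 bases.

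Fosb and Fosl2 held GCGNGGGCG, the EGR site, at -50 to -42 and -79 to -71, and 4.70% of all promoters and 8.93% of those of genes at 1 CPM or more hold it. In both it overlapped GGGCGG, the SP1 box, which 5 of the 7 genes (Fos, Fosb, Fosl2, Jun and Ier3) and 32.7% of all promoters hold. The SP1 box was present in 58.2% of promoters of genes at 1 CPM or more. CCAAT was found in Jun, Junb and Ier3, against 33.8% of all promoters and 35.7% of those of genes at 1 CPM or more. The share of G and C ranged from 47.6% in Jund to 68.8% in Fosb, with a median of 60% over genes at 1 CPM or more. Jund, which had none of the motifs searched, was also the gene whose RefSeq start lay farthest, 1210 bases, from the start annotated in GENCODE, and for Fosl2 this distance was 671 bases. The other 5 starts differed by at most 30 bases.

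**Figure D1:**
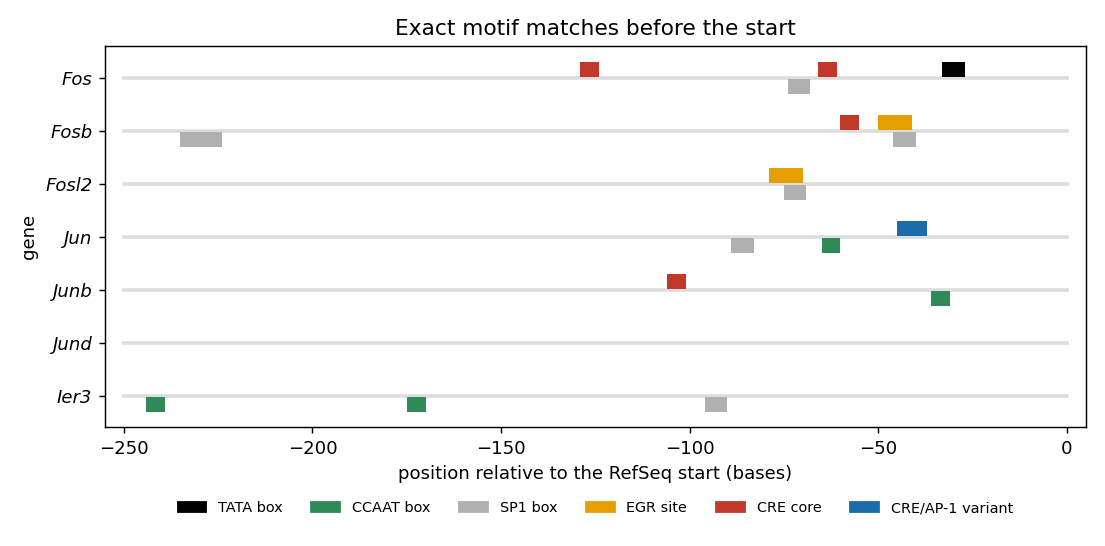
Exact matches to 6 motifs in the 250 bases before the RefSeq start of 7 genes. Each row is a gene, the horizontal axis is the position in bases relative to the start, and boxes mark matches on either strand. CRE cores stand at -129 and -66 in Fos and at -60 in Fosb, the CRE/AP-1 variant at -45 in Jun, and Jund has no match.

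Jun was the most abundant of the 10 mRNAs. JUN is the strongest transcriptional activator of its family, whereas JUNB and JUND are known to restrain growth in many cells. On GRCm38 (the mm10 build, GENCODE M21), Jun (chr4:95049034-95052222) averaged 188 CPM, or 3685 reads per library as a geometric mean of reads plus 0.5. Jund (chr8:70698949-70700616) averaged 55.0 CPM and Junb (chr8:84974484-84978718) 10.1 CPM. Divided by the length of the union of exons, which allows different genes to be compared, the level was 58.8 CPM per kb for Jun, 33.0 for Jund and 4.39 for Junb. By union of exons, Jun stood 1.78-fold above Jund and 13.4-fold above Junb in level per kb, and by coding length 3.48-fold and 19.1-fold. Of the summed JUN level per kb of exon, 61.2% came from Jun, 34.3% from Jund and 4.56% from Junb. By coding length these shares were 74.7%, 21.4% and 3.90%.

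Among the FOS genes, Fosl2 and not Fos gave most of the mRNA. FOSL2 and FOSL1 lack the strong activation domain of FOS and FOSB. Fosl2 (chr5:32135801-32157842) averaged 58.9 CPM, Fos (chr12:85473890-85477273) 6.74 CPM and Fosb (chr7:19302696-19310051) 2.38 CPM. Per kb of exon the levels were 6.09 for Fosl2, 2.86 for Fos and 0.381 for Fosb. By union of exons, the level per kb of Fosl2 was 2.13-fold that of Fos, which in turn was 7.53-fold that of Fosb, and Fosl2 made up 65.1% of the summed FOS level. These folds depended on the length, since Fosl2 was 2.82-fold Fos by the longest transcript and 10.2-fold by coding length, and Fos was 5.09-fold and 2.52-fold Fosb. The union of Fosl2 exons is long, at 9680 bases against a coding length of 978 bases, and by coding length Fosl2 made up 87.9% of the FOS sum. The reads were not limited to coding bases, so division by coding length raises genes with long UTRs, such as Fosl2, the most. Values by coding length are therefore a bound on the effect of length rather than an equal estimate. Summed over family members, the JUN level per kb was 10.3-fold the FOS level, and 3.66-fold by coding length.

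Fosl1 (chr19:5447547-5455946) was the exception, with almost no reads. Its average of 0.0400 CPM stood just above the 0.0255 CPM that a gene without any read is given by the 0.5 reads added to every count. For genes with so few reads, the average fixes the product over the 6 libraries of double the reads plus 1, and this product was an odd whole number, to within 1e-06 of its value, in 100% of the 4611 genes with reads and a product under 1000. For Fosl1 the product was 15. Either 1 library held 7 reads and the rest none, or 1 library held 2 reads, another held 1 and the rest none. Fosl1 reads therefore came from at most 2 of the 6 libraries, and no fold is given for this gene.

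Egr1 (chr18:34859823-34864984) averaged 3.36 CPM, about 66.0 reads per library, and 0.749 CPM per kb. Ier2 (chr8:84661331-84662852) averaged 16.3 CPM and Ier3 (chr17:35821684-35822923) 37.5 CPM. Per kb, Ier3 reached 33.1 and Ier2 10.7, so that Ier3 was 3.09-fold above Ier2 and Ier2 was 14.3-fold above Egr1. By union of exons, and also by the longest transcript, the levels per kb of Ier3 and Jund could not be told apart, with a gap of 0.0064 on the log2 scale against a counting error of at least 0.028. By coding length Ier3 was 1.45-fold above Jund.

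**Figure D2:**
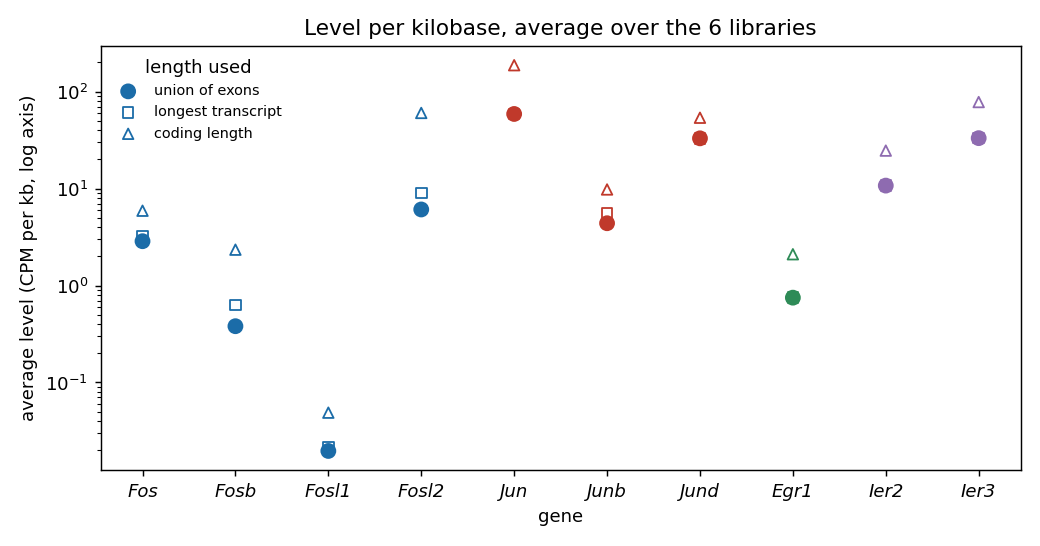
Average level of the 10 genes over the 6 libraries, in CPM per kb on a log axis. Filled circles divide by the union of exons, squares by the longest transcript (hidden under the circle where both lengths are equal) and triangles by the coding length. Jun is highest at 58.8 CPM per kb of exon, Fosl1 is lowest, and Fosl2 moves most with the length used, from 6.09 to 60.3 CPM per kb.

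By level per kb of exon, the order was Jun, Ier3, Jund, Ier2, Fosl2, Junb, Fos, Egr1, Fosb and Fosl1. Counting error of the log2 average, a lower bound computed from the reads, was between 0.0097 and 0.086 for the 9 genes other than Fosl1. Each neighbouring pair among these 9, other than Ier3 and Jund, was farther apart than its counting error, the closest being Fosl2 and Junb with a log2 gap of 0.47. The spread between cultures is not part of this error, so none of these gaps was tested against it. Choice of length changed the order for Fosl2, which moved from the fifth to the third place by coding length, and for Fosb, which then stood above Egr1.

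At an average of 1 CPM or more, 9 of the 10 genes were counted, whereas 43.7% of all 27179 genes were. Per kb of exon, Jun stood above 97.3% of the 23882 genes with a known length, Ier3 and Jund above 94.1%, Ier2 above 81.5%, Fosl2 above 73.5% and Junb above 69.5%. Fos stood above 65.1%, Egr1 above 55.8% and Fosb above 51.6%. Many genes of the table are silent in these cells, and against the 11477 genes at 1 CPM or more with a known length, whose median was 7.26 CPM per kb, only Jun, Ier3, Jund and Ier2 were above the median. Fosb, Egr1 and Fosl1 lay below the lower quartile of 2.48 CPM per kb.

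**Figure D3:**
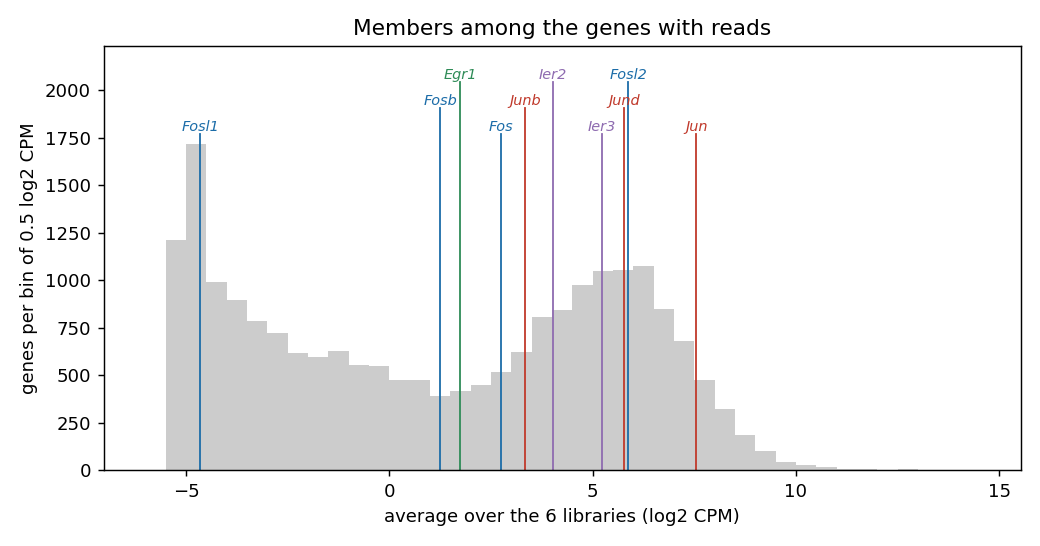
Distribution of the average log2 CPM over the 21154 genes with reads, in bins of 0.5, with vertical lines at the 10 genes. Fosl1 lies among the genes with hardly any reads at -4.64, Fosb, Egr1 and Fos lie in the trough between 1 and 3, and Fosl2, Jund and Jun lie in or above the main peak of expressed genes.

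Other proteins that pair with JUN or FOS were represented by 13 genes of the ATF, BATF, JDP and MAF families. Of these, 9 averaged at least 1 CPM. Atf4, an effector of the integrated stress response, was the highest at 360 CPM and 153 CPM per kb, and by union of exons it alone of the 13 stood above Jun per kb. Atf3, a stress-induced repressor, had 57.3 CPM per kb of exon, below the 58.8 of Jun, but 62.2 by the longest transcript, above the 58.8 that Jun also has by that length. Atf2 had 20.8 CPM per kb of exon. Jdp2, a repressor that binds JUN proteins, had 12.9 CPM per kb. The 3 BATF genes, best known from lymphoid cells, averaged under 1 CPM, and Batf was the lowest of the 13 at 0.0480 CPM. Mafg and Mafk, small MAF proteins without an activation domain, had 13.8 and 10.2 CPM per kb.

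Egr1 was the only one of the 4 EGR genes at 1 CPM or more. Egr2 averaged 0.207 CPM, Egr3 0.0508 CPM, and Egr4 had no read in any library. Nab1 and Nab2 encode corepressors that bind EGR proteins, and they averaged 146 and 13.0 CPM. Per kb, Nab1 reached 35.6 and Nab2 4.42, both above the 0.749 of Egr1.

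Among 21 further immediate early genes, 17 averaged at least 1 CPM and the median was 4.12 CPM per kb, beside 5.24 for the 10 genes above. Mcl1, an antiapoptotic BCL2 protein, was the highest at 187 CPM and 54.8 CPM per kb, and Npas4, a neuronal factor, the lowest at 0.0441 CPM. Klf6 had 34.5 CPM per kb, Zfp36l1, which promotes decay of AU-rich mRNAs, 22.2, and Myc 9.98. All 6 genes for SRF and its cofactors were at 1 CPM or more, from Elk3 with 15.7 CPM to Mrtfb with 74.7 CPM, and Srf itself had 14.3 CPM per kb. All 11 genes of the MAP kinase pathway upstream were as well, the lowest being Rps6ka1 at 15.5 CPM, and Map2k1, which encodes the kinase MEK1, had 44.4 CPM per kb.

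**Figure D4:**
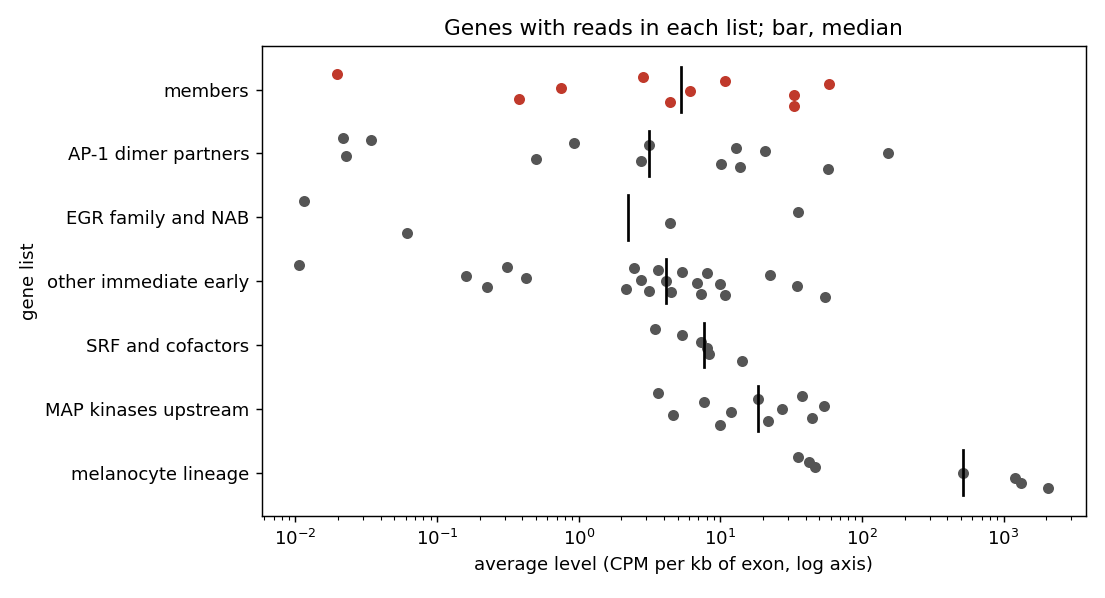
Average level per kb of exon, on a log axis, of each gene with reads in 7 lists, with a bar at the median of the genes shown. The 10 members (red) spread from Fosl1 to Jun, and the melanocyte lineage genes lie highest, up to 2062 CPM per kb.

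Markers of the melanocyte lineage, which the label of the cells implies, were abundant. All 7 (Pmel, Tyr, Tyrp1, Dct, Mlana, Mitf and Sox10) averaged from 109 CPM (Sox10) to 7052 CPM (Dct). The 3 keratinocyte markers were at 0 or 1 read, and the 3 leukocyte markers averaged at most 0.271 CPM (Itgam), with Ptprc at 0.0702. Of the endothelial and fibroblast markers, Pecam1 averaged 1.21 CPM, Cdh5 0.101, Pdgfra 3.28, Col1a1 1.70 and Dcn 0.308.

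Jun, Junb, Jund and Ier2 each consist of 1 exon in the transcript with the longest coding sequence, which is 4 of 10 genes, against 4.29% of the 19901 coding genes of the table with a 3′ UTR and 1.83% of those at 1 CPM or more. The annotated span of Junb is longer than the union of its exons, at 2301 bases, so other Junb transcripts hold an intron. Egr1 and Ier3 have 2 exons and the 4 FOS genes have 4 exons each. The spliced transcripts ran from 1131 bases for Ier3 to 6537 bases for Fosl2.

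AUUUA pentamers, the units of AU-rich elements that speed mRNA decay, were present in the 3′ UTR of 9 of the 10 genes, against 62.2% of the 19901 coding genes and 66.9% of those at 1 CPM or more. Fosl2 held 8 of them in 4653 bases, Ier3 5 in 613 bases, Fos and Jun 4 each, Junb and Egr1 2 each, and Fosb, Fosl1 and Jund 1 each. Ier2 had 0 in 755 bases. The density was highest in Ier3 with 8.16 per kb, followed by Fos with 4.91, Junb with 4.12 and Jun with 3.24, and the median over the 10993 coding genes at 1 CPM or more was 1.26 per kb. UUAUUUAUU, a nonamer that contains AUUUA, was found in Fos and Fosl2, and in 7.41% of coding genes at 1 CPM or more.

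The 30 bases of each UTR with the most pentamers are shown for the 4 genes with at least 4 of them, with the pentamers in capitals. They begin at base 632 after the stop codon in Fos, 3669 in Fosl2, 1028 in Jun and 166 in Ier3.
Fos: aacguuuuuauuguguuuucaAUUUAUUUA
Fosl2: agaagaaauugacAUUUAuuuuauuAUUUA
Jun: gugaucAUUUAuaaucauaggaaagAUUUA
Ier3: cuccgugucuaauuaauAUUUAuguAUUUA
In Fos the pentamers share a base and form one run, and in the other genes they are separated.

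Of the 10 genes, 4 overlap an annotated gene on the opposite strand, and the sources used here do not state whether counting used strand. The share of all genes with such an overlap was not counted, so this number cannot be called high or low. Ccdc85b, at 1.81 CPM, shares 1163 bases of the Fosl1 exons, 57.2% of their length. Prdx2, a peroxiredoxin at 144 CPM, shares 173 bases or 7.52% of the Junb exons, and Junb itself averages 10.1 CPM. Junos shares 7.28% of the Jun exons and Gm11175 shares 52.6% of the Jund exons. The part of these neighbours in the levels of Junb, Jun and Jund was not tested. The other 6 genes overlap no annotated gene.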

How the data were processed

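RNA of 6 libraries (3 OLO, 3 OZO) was made into cDNA with a directional kit and sequenced. Per the labels and the methods, the authors aligned reads to mm10 with HISAT2 (2.1.0), counted them per gene with featureCounts (2.1.1) and fitted limma-voom (limma 3.58.1). Per the file headers, the deposited table gives for each gene an average log2 CPM over all libraries, which was the only measurement used, and the authors' own comparison of OZO with OLO (fold change, moderated statistic, p-values and log odds), which was not used. No test was therefore run, single libraries were not analysed, and they cannot be checked for duplicates or batches. The tests planned for counts or normalized values of single libraries did not apply.

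Averages were turned into CPM by raising 2 to them, so each CPM is a geometric mean over OZO and OLO libraries together. Family sums and shares add such means, and need not match the make-up of any library or group. The depth was solved from genes without reads, with the 0.5 reads that voom adds. Each level was divided by the union of the gene's exons in GENCODE M21 (GRCm38), in which 23882 of the 24126 rows with an Ensembl identifier had a length. These lengths may differ from those the authors counted on. Counting error is at least 1/(ln 2 times the root of all reads), and covers counting error only. Motifs were searched as exact letters on both strands in RefSeq promoters. The 10 genes, the lists and the motifs were chosen with earlier results or sequences of these genes known, and support nothing by themselves. Genes named are the 10 members, members of the 10 other lists, the highest and lowest of each list among them (a few listed genes are not reported here by name), and genes that overlap a member. Recovery of the depth and of the product of double the reads plus 1 was checked on simulated counts. The simulation used the same formula that was inverted, so it checks the arithmetic only. Python 3.11.15, numpy 2.4.6, pandas 2.3.3 and matplotlib 3.10.9 were used.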

Additional observations from a re-analysis of the deposited data

How the results depend on the processing

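No paired analysis was possible because averages over all libraries carry no replicate numbers. For the same reason the alternatives that need values of single libraries (another test, another normalization, a filter, a block, leaving out a library, a pseudocount) were not run. The median percentile of the 10 genes by reads was 69.8 among all genes, 61.2 among genes with at least 1 read and 71.5 per kb of exon, and it was 35.4 among genes at 1 CPM or more, where 9 genes entered. The median level was 5.24 CPM per kb with the union of exons, 7.30 with the longest transcript and 17.2 with the coding length. Values by coding length still count reads in the UTRs, which raises genes with long UTRs. The summed JUN level was 10.3-fold the FOS level with the union of exons, 7.57-fold with the longest transcript and 3.66-fold with the coding length, so JUN stayed above FOS under each of these lengths. At least 1 of the 4 motifs was found in 4 promoters, in 3 within 100 bases, where 14.1% of all promoters hold one, and in 6 of 7 with 1 mismatch, where 99.4% of all promoters do, so that the last count tells nothing about these genes. Genes at 1 CPM or more numbered 9, also at 0.5 CPM, which 47.8% of all genes reach, and 7 at 5 CPM, which 36.2% reach. AUUUA was in 9 genes also with the longest transcript. With that transcript, 65.3% of all coding genes and 70.5% of those at 1 CPM or more hold it.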

Other observations

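Among listed genes outside the 10, the average also fixed the reads of several that had hardly any. Npas4 had a product of 27, which stands for 1 read in each of 3 libraries, for 4 reads and 1 read in 2 libraries, or for 13 reads in 1 library. Cd3e had a product of 9, from 1 read in each of 2 libraries or 4 reads in 1. Krt14 and Krt10 each had 1 read in 1 library. Which library held these reads is not known.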
